A study of Homo sapiens with 8 samples.

Results

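The RNA of 10 genes was followed in OVSAHO and KURAMOCHI, both established serous ovarian cancer cell lines. Their products serve the attachment of isoprenoid lipids to proteins, from the supply of a lipid to the processing of the lipid-bearing end. The genes were chosen by the function of their products, with earlier results of these data known. Each was read from its brightest probe, the one of highest average intensity. They are 10 of 16951 named genes with a tested probe, and their 13 probes are among 33753 tested probes. All 13 probes were well above background on all 8 arrays, so that the filter on dim probes removed none of them. PGGT1B, RABGGTB and CHM each had 2 probes, and the other 7 genes had 1 each.

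Total RNA was measured on 8 arrays of 1 colour in 4 groups of 2 arrays each, namely OVSAHO with simvastatin, OVSAHO with L-778123, KURAMOCHI with simvastatin and KURAMOCHI with L-778123. Simvastatin is a statin, a drug that blocks the mevalonate pathway, and L-778123 inhibits both farnesyltransferase and geranylgeranyl transferase I. The study asked which genes simvastatin regulates beyond what inhibition of protein prenylation does, and it therefore set the drugs against each other. Cells without either drug were not analysed here, and a difference between the drugs therefore does not show which of them moved a gene. The concentrations and times of the array cultures are not given in the sources used here, and nothing states that the arrays of a group came from separate cultures, so the p-values measure only the spread between these samples.

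Farnesyl and geranylgeranyl diphosphate are products of the mevalonate pathway, and prenyltransferases join them to cysteines near the carboxyl end of proteins such as Ras and Rab GTPases and nuclear lamins. Proteins ending in a CAAX motif are prenylated by farnesyltransferase or geranylgeranyl transferase I, after which the last residues are removed by RCE1 or ZMPSTE24 and the exposed cysteine is methylated by ICMT. Rab proteins follow another route, in which a Rab escort protein presents them to Rab geranylgeranyl transferase.

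Each log2 level is the log2 intensity of a probe minus the 75th percentile of its array, so that 0 is the 75th percentile, and levels of different probes are not set against each other. The arrays of a group correlated at 0.995 to 0.996 over tested probes, and the median difference between them was 0.0963 to 0.111 on the log2 scale. All arrays lay on 1 slide of 1 scan, with each line in its own row and each drug at its own positions, so position and group cannot be told apart. All 8 markers of serous ovarian carcinoma, among them PAX8 and WT1, were well above background on all 8 arrays. Of 8 markers of leukocytes, endothelium and fibroblasts, PTPRC, CD14 and CDH5 were well above background on all arrays. COL1A1 was so on 4 arrays, CD3E on 1, and PECAM1, DCN and LUM on none. With simvastatin and L-778123 in turn, the mean log2 level of COL1A1 was -6.69 and -7.02 in OVSAHO and -3.05 and -2.60 in KURAMOCHI. In OVSAHO the summed intensity of the carcinoma markers, relative to the 75th percentile, was 506 to 516 with simvastatin and 616 to 663 with L-778123. In KURAMOCHI it was 346 to 359.8 against 633 to 655. These sums weigh the brightest markers most, and the markers did not move together. PAX8 and MSLN were higher with simvastatin in both lines, and EPCAM, KRT8 and KRT18 were lower. WT1, MUC16 and KRT7 ran opposite ways in the lines. For the 8 markers of other cells the summed intensity was 0.681 to 0.704 over OVSAHO arrays and 0.872 to 1.04 over KURAMOCHI arrays, on the same scale. The part of either sum in the differences below was not tested.

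Between the lines 3 of the 10 genes differed at least 2-fold, and between the drugs none did. Between OVSAHO and KURAMOCHI, averaged over drugs, all 10 genes passed an adjusted p of 0.05 in limma, against 77.7% of tested probes, and the 2-fold differences stood against 33.7% of tested probes. PGGT1B and RABGGTB were 2-fold higher in OVSAHO, as were 17.6% of tested probes, and ICMT was 2-fold lower there, as were 16.1%. Between simvastatin and L-778123 in OVSAHO, 6 of 10 genes passed, against 48.1% of tested probes. GGPS1, FNTA and RCE1 were higher with simvastatin, as were 23% of tested probes, and FNTB, ZMPSTE24 and ICMT were lower, as were 25.1%. In KURAMOCHI 2 of 10 genes passed, against 31.4% of tested probes, with GGPS1 higher and ZMPSTE24 lower with simvastatin, against 14.1% and 17.3%. No gene reached a 2-fold difference between the drugs in either line, against 11% of tested probes in OVSAHO and 5.59% in KURAMOCHI.

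The median size of the log2 fold change between drugs was 0.23 over the 10 genes in OVSAHO, beside 0.34 over all tested probes. In KURAMOCHI it was 0.12 beside 0.24, and between the lines it was 0.33 beside 0.63. FNTA, FNTB and RCE1 differed more between the drugs in OVSAHO than between the lines, and GGPS1 differed more between the drugs in KURAMOCHI. The count for OVSAHO was 2 without replicate 2 of OVSAHO simvastatin, 3 without replicate 1 of OVSAHO L-778123 and 4 without its replicate 2. In KURAMOCHI the count was 0 without replicate 1 of KURAMOCHI simvastatin or replicate 2 of KURAMOCHI L-778123, and 1 without any other array. In bulk RNA, fewer cells of a kind and less RNA per cell cannot be told apart.

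**Figure D1:**
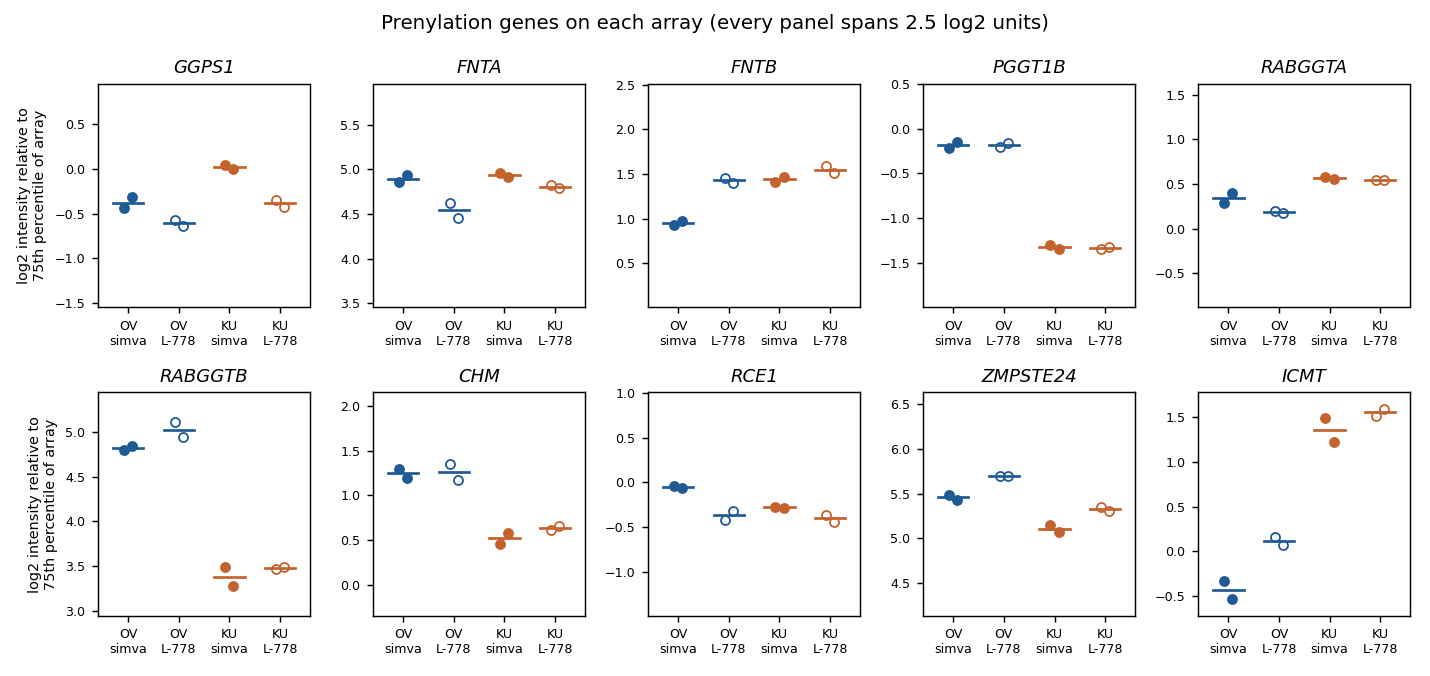
Log2 intensity of each gene on each of the 8 arrays (y axis, relative to the 75th percentile of the array), with simvastatin as filled and L-778123 as open circles, OVSAHO (OV) in blue, KURAMOCHI (KU) in orange, and a line at each group mean. Every panel spans the same number of log2 units, PGGT1B, RABGGTB and ICMT show the widest gaps between the lines, and the widest gap between drugs is that of ICMT in OVSAHO at -0.55.

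Upstream of the transferases stands GGPS1, geranylgeranyl diphosphate synthase, which makes the lipid donor of geranylgeranyl transferase I and Rab geranylgeranyl transferase. GGPS1 read, on the log2 scale, -0.44 and -0.32 in OVSAHO with simvastatin, -0.58 and -0.63 in OVSAHO with L-778123, 0.042 and -0.0039 in KURAMOCHI with simvastatin, and -0.34 and -0.43 in KURAMOCHI with L-778123. Both simvastatin arrays lay above both L-778123 arrays in each line, and simvastatin-treated KURAMOCHI cells held the highest level of the 4 groups. GGPS1 was the only gene of the 10 that was higher with simvastatin in both lines by the test. The log2 fold change was 0.40 ± 0.070 (SE, limma adjusted p = 0.0093) in KURAMOCHI and 0.23 ± 0.070 (limma adjusted p = 0.0401) in OVSAHO, and the difference between these changes was -0.18 with an interval of -0.42 to 0.068. The OVSAHO change missed the threshold without any 1 of 7 arrays, at adjusted p of 0.0551 to 0.169, replicate 1 of OVSAHO simvastatin being the exception, and also with no filter, the arrays of 1 line alone, the replicate block and the methods' Tukey test (adjusted p of 0.0655 to 0.143). The KURAMOCHI change missed it without replicate 1 of simvastatin (adjusted p = 0.0532) or replicate 2 of L-778123 (adjusted p = 0.0514) of that line, or with the methods' Tukey test (adjusted p = 0.0571).

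FNTA encodes the alpha subunit that farnesyltransferase and geranylgeranyl transferase I share, and thus a part of both enzymes that L-778123 inhibits. FNTA had log2 levels of 4.86 and 4.93 in OVSAHO with simvastatin and 4.62 and 4.46 with L-778123. In KURAMOCHI it was 4.96 and 4.91 with simvastatin and 4.82 and 4.79 with L-778123. OVSAHO cells with L-778123 were the lowest of the 4 groups, and the simvastatin groups of the lines overlapped. The log2 fold change was 0.36 ± 0.073 (SE, limma adjusted p = 0.0102) in OVSAHO and 0.13 (adjusted p = 0.244) in KURAMOCHI, whose interval ran from -0.055 to 0.31. The lines were not shown to differ in this change (difference 0.23, adjusted p = 0.169). Without replicate 2 of OVSAHO simvastatin the OVSAHO change was 0.32 (adjusted p = 0.0541), and the methods' Tukey test gave an adjusted p of 0.060.

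FNTB encodes the beta subunit of farnesyltransferase, which binds the farnesyl diphosphate. The log2 levels of FNTB were 0.93 and 0.97 in OVSAHO with simvastatin and 1.46 and 1.40 in OVSAHO with L-778123. KURAMOCHI arrays read 1.42 and 1.47 with simvastatin and 1.59 and 1.51 with L-778123. Simvastatin-treated OVSAHO cells stood apart, and the other 6 arrays lay between 1.40 and 1.59. The change with simvastatin in OVSAHO was -0.48 ± 0.060 (SE, limma adjusted p = 0.0017), a 1.39-fold lower level, while KURAMOCHI showed -0.11 (adjusted p = 0.226). The change in OVSAHO passed under all 18 alternatives that gave a value, from -0.51 to -0.45.

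FNTB was also the only gene of the 10 whose drug contrast differed between the lines by its own test (difference -0.37 ± 0.086, limma adjusted p = 0.0310), against 22.9% of tested probes, 11.7% in its direction. That call was lost without any 1 of the 8 arrays, at adjusted p of 0.0552 to 0.0937, with no filter (adjusted p = 0.127) and with the replicate block (adjusted p = 0.0581). The genes of the farnesyltransferase subunits ran opposite ways in OVSAHO, with FNTA higher and FNTB lower with simvastatin. A readthrough transcript of CHURC1 and FNTB overlaps the gene in the RefSeq annotation, and whether the probe separates it was not tested.

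PGGT1B encodes the beta subunit of geranylgeranyl transferase I, the other enzyme inhibited by L-778123. On the log2 scale PGGT1B read -0.22 and -0.15 in OVSAHO with simvastatin and -0.21 and -0.16 with L-778123. In KURAMOCHI it was -1.30 and -1.34 with simvastatin and -1.35 and -1.32 with L-778123. The 4 OVSAHO arrays lay above the 4 KURAMOCHI arrays with a wide gap, and within each line the drugs overlapped. OVSAHO was higher by 1.14 ± 0.041 on the log2 scale (SE, limma adjusted p = 2.1e-06), a 2.21-fold difference, and by 0.85, below 2-fold, with normexp background correction. The drug contrast was 0.00076 in OVSAHO, with an interval of -0.14 to 0.14, and 0.0097 in KURAMOCHI, with an interval of -0.13 to 0.15, so that neither interval reached a 1.5-fold change. The other probe of PGGT1B gave a line difference of 1.23 and drug contrasts of 0.16 (adjusted p = 0.247) in OVSAHO and 0.32 (adjusted p = 0.0706) in KURAMOCHI.

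In Rab geranylgeranyl transferase, RABGGTA encodes the alpha subunit and RABGGTB the beta subunit, which carries the catalytic site. RABGGTA stood at log2 levels of 0.29 and 0.40 in OVSAHO with simvastatin and 0.20 and 0.17 with L-778123, and at 0.58, 0.56, 0.55 and 0.54 over the KURAMOCHI arrays in the same order. All KURAMOCHI arrays lay above all OVSAHO arrays, with OVSAHO minus KURAMOCHI at -0.29 ± 0.042 (SE, limma adjusted p = 0.0010). Its drug contrast was 0.16 (adjusted p = 0.0774) in OVSAHO and 0.023 (adjusted p = 0.795) in KURAMOCHI.

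RABGGTB had log2 levels of 4.80 and 4.84 in OVSAHO with simvastatin and 5.11 and 4.94 with L-778123. KURAMOCHI arrays read 3.49 and 3.28 with simvastatin and 3.47 and 3.48 with L-778123. Every OVSAHO array was above every KURAMOCHI array, the reverse of RABGGTA, so the subunit genes of 1 enzyme differed between the lines in opposite directions. The difference was 1.49 ± 0.066 on the log2 scale (SE, limma adjusted p = 5e-06), or 2.82-fold, and the other RABGGTB probe gave 1.47. With simvastatin alone it was 2.71-fold and with L-778123 alone 2.93-fold. The drug contrast was -0.21 (adjusted p = 0.121) in OVSAHO and -0.095 (adjusted p = 0.488) in KURAMOCHI, and the other probe gave -0.22 (adjusted p = 0.0562) and -0.10 (adjusted p = 0.355). Pseudogene copies of RABGGTB, PGGT1B and FNTA are annotated, and the files do not show whether these probes also bind them.

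CHM encodes Rab escort protein 1, the loss of which causes choroideremia, a degeneration of the retina. Its log2 level was 1.30 and 1.19 in OVSAHO with simvastatin, 1.35 and 1.17 in OVSAHO with L-778123, 0.46 and 0.58 in KURAMOCHI with simvastatin, and 0.61 and 0.65 in KURAMOCHI with L-778123. The lines did not overlap, and OVSAHO was higher by 0.68 ± 0.062 (SE, limma adjusted p = 1.2e-04), a 1.60-fold difference. This probe showed no change between drugs past the threshold, with -0.012 (interval -0.23 to 0.20) in OVSAHO and -0.11 (interval -0.33 to 0.10) in KURAMOCHI.

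The other CHM probe, which the array design ties to another transcript of the gene, read -0.76 and -0.50 with simvastatin and -0.0089 and -0.059 with L-778123 in OVSAHO. In KURAMOCHI it read -1.38 and -1.43 with simvastatin and -1.06 and -0.91 with L-778123. This probe was lower with simvastatin in both lines, at -0.59 ± 0.10 (SE, limma adjusted p = 0.0054) in OVSAHO and -0.42 ± 0.10 (limma adjusted p = 0.0282) in KURAMOCHI. Between the drugs, the intervals of the CHM probes did not overlap in OVSAHO. In KURAMOCHI both values were negative and the intervals overlapped, and the difference between the probes was not tested. The CHM probes ran the same way between the lines, the other probe giving 0.86 for OVSAHO minus KURAMOCHI. The median over both probes passed in OVSAHO (-0.30, adjusted p = 0.0166) and in KURAMOCHI (-0.27, adjusted p = 0.0372).

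**Figure D2:**
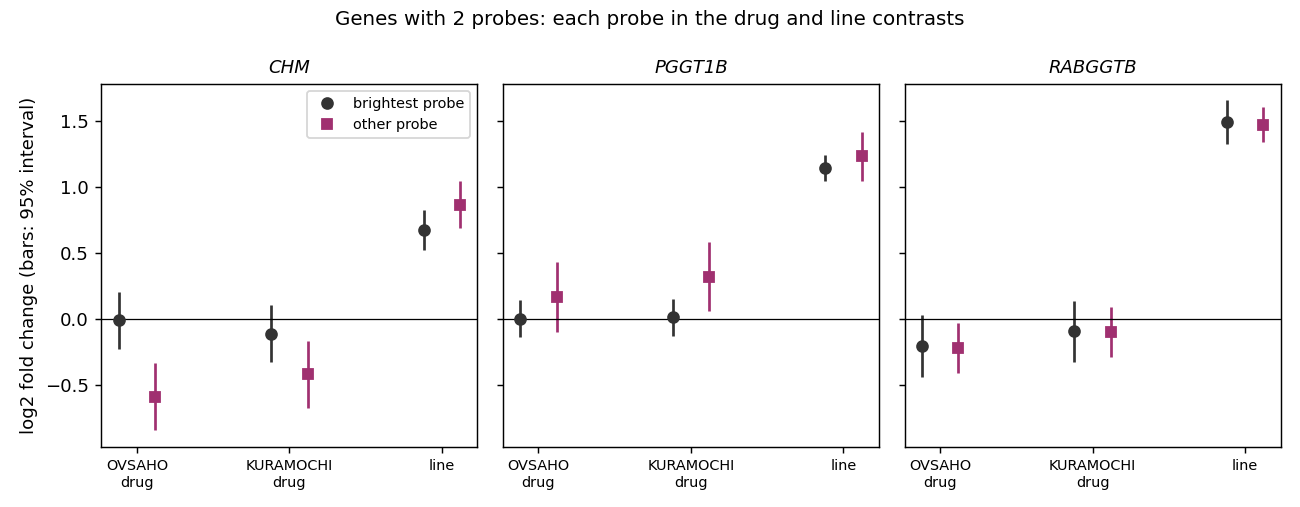
Log2 fold change (y axis) by both probes of CHM, PGGT1B and RABGGTB for simvastatin against L-778123 in OVSAHO and in KURAMOCHI and for OVSAHO against KURAMOCHI, with circles for the brightest probe, squares for the other probe and bars for 95% intervals. Both probes of each gene place OVSAHO above KURAMOCHI, while in the OVSAHO drug contrast the CHM probes part, at -0.012 and -0.59.

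RCE1 is the protease that removes the last residues of most prenylated CAAX proteins. Its log2 level was -0.040 and -0.057 in OVSAHO with simvastatin and -0.42 and -0.31 in OVSAHO with L-778123, and -0.27, -0.29, -0.36 and -0.44 over the KURAMOCHI arrays in the same order. The OVSAHO simvastatin arrays were the highest, and the other 6 lay between -0.44 and -0.27. RCE1 was higher with simvastatin in OVSAHO by 0.32 ± 0.064 (SE, limma adjusted p = 0.0094), and this call was kept under all 18 alternatives. KURAMOCHI showed 0.12 (adjusted p = 0.201), and the difference between the lines of 0.20 did not pass (adjusted p = 0.179). Between the lines RCE1 differed by 0.13 (adjusted p = 0.0376), a call lost without any 1 of 6 arrays, at adjusted p of 0.0778 to 0.109, all but replicate 1 of L-778123 in each line, and with normexp, the authors' table, no filter and the replicate block (adjusted p of 0.0508 to 0.114).

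ZMPSTE24 is a membrane protease that acts in the same step and is best known for the maturation of prelamin A. Its log2 level was 5.49 and 5.43 in OVSAHO with simvastatin and 5.70 and 5.70 with L-778123. In KURAMOCHI it was 5.15 and 5.07 with simvastatin and 5.35 and 5.30 with L-778123. The 4 groups were separate, OVSAHO above KURAMOCHI and, in each line, L-778123 above simvastatin. ZMPSTE24 was the only gene of the 10 that was lower with simvastatin in both lines by the test at its brightest probe, at -0.24 ± 0.058 (SE, limma adjusted p = 0.0192) in OVSAHO and -0.21 ± 0.058 (limma adjusted p = 0.0395) in KURAMOCHI. The changes of the lines differed by -0.023, with an interval of -0.23 to 0.18. The OVSAHO call was lost without replicate 2 of simvastatin or either L-778123 array of that line, at adjusted p of 0.0617 to 0.0884, with no filter (adjusted p = 0.0853) and with the arrays of that line alone (adjusted p = 0.0563). The KURAMOCHI call was lost without any 1 of the 8 arrays, at adjusted p of 0.0594 to 0.165, and under 6 other alternatives at 0.0529 to 0.158, among them quantile normalization, with a value of -0.14 (adjusted p = 0.119). Between the lines the difference was 0.36 ± 0.041 (SE, limma adjusted p = 3.5e-04).

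ICMT is the methyltransferase that completes the processing of prenylated CAAX proteins, and it showed the widest range of the 10 genes over the 4 groups, 1.99 on the log2 scale. Its log2 level was -0.33 and -0.54 in OVSAHO with simvastatin and 0.16 and 0.074 in OVSAHO with L-778123. In KURAMOCHI it was 1.49 and 1.23 with simvastatin and 1.52 and 1.59 with L-778123. KURAMOCHI lay far above OVSAHO with either drug, and simvastatin-treated OVSAHO cells held the lowest level. Averaged over drugs, OVSAHO minus KURAMOCHI was -1.61 ± 0.081 (SE, limma adjusted p = 8.2e-06), which is 3.06-fold higher in KURAMOCHI. With simvastatin the log2 difference was -1.79 and with L-778123 it was -1.44.

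Between the drugs, ICMT changed by -0.55 ± 0.115 (SE, limma adjusted p = 0.0108) with simvastatin in OVSAHO, or 1.46-fold lower, and KURAMOCHI showed -0.20 (adjusted p = 0.244, interval -0.48 to 0.087). The lines were not shown to differ in this change of ICMT (difference -0.35, adjusted p = 0.178). The OVSAHO change missed the threshold without replicate 2 of simvastatin (adjusted p = 0.0540) or replicate 1 of L-778123 (adjusted p = 0.0558) of that line, and with the methods' Tukey test (adjusted p = 0.102).

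**Figure D3:**
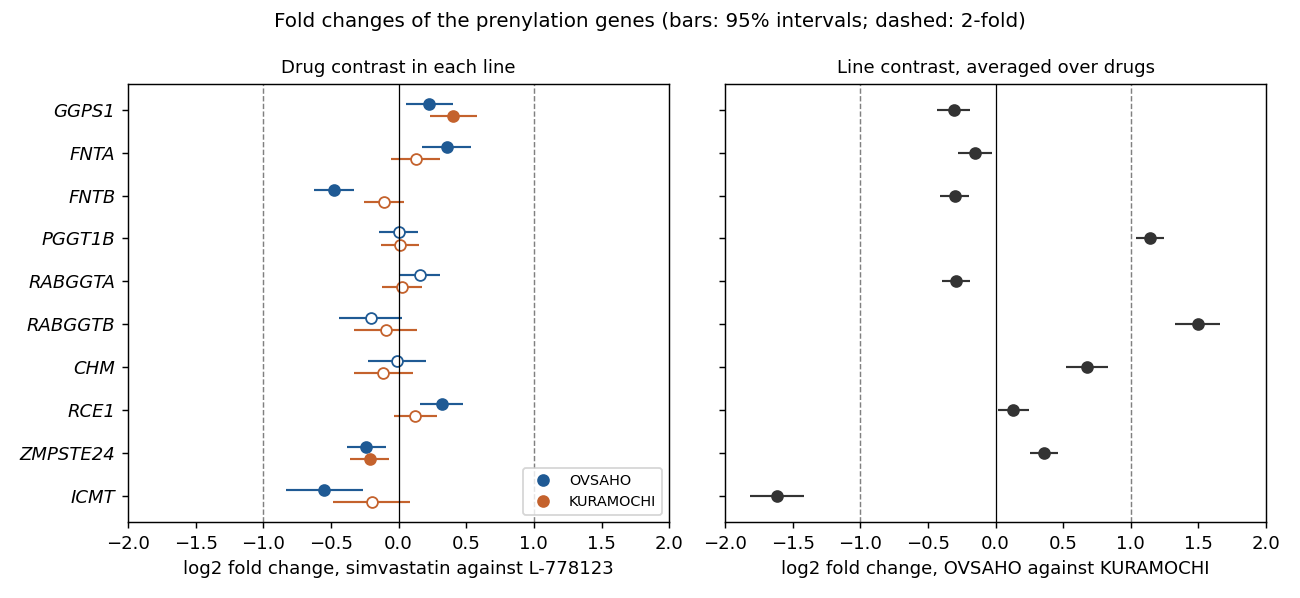
Log2 fold changes of the 10 genes (x axes) for simvastatin against L-778123 in each line on the left and for OVSAHO against KURAMOCHI averaged over drugs on the right, with bars for 95% intervals, filled points past the adjusted p of 0.05 and dashed lines at 2-fold. All drug contrasts lie inside 2-fold, and PGGT1B at 1.14, RABGGTB at 1.49 and ICMT at -1.61 lie outside it between the lines.

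Arrays of the lines did not overlap for 6 of the 10 genes, against 57.6% of tested probes, namely PGGT1B, RABGGTA, RABGGTB, CHM, ZMPSTE24 and ICMT. Arrays of the drugs did not overlap for 8 of 10 genes in OVSAHO, against 77.1% of tested probes, and for 8 of 10 in KURAMOCHI, against 69.9%. By the test, 5 genes were higher in OVSAHO and 5 in KURAMOCHI, against 40.2% and 37.4% of tested probes. For the Rab route, RABGGTB and CHM were higher in OVSAHO and RABGGTA in KURAMOCHI. For the CAAX route, PGGT1B, RCE1 and ZMPSTE24 were higher in OVSAHO, and FNTA, FNTB and ICMT in KURAMOCHI. The FNTA difference of -0.15 (limma adjusted p = 0.0362) was lost without any 1 of 7 arrays, all but replicate 1 of OVSAHO L-778123, at adjusted p of 0.0550 to 0.102, with no filter (adjusted p = 0.101) and with the replicate block (adjusted p = 0.0501). GGPS1 differed by -0.31 (adjusted p = 0.0017) and FNTB by -0.30 (adjusted p = 9.4e-04).

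The sequences before the starts of PGGT1B, RABGGTB and ICMT are shown because these genes differed at least 2-fold between the lines, and that of ZMPSTE24 because it was lower with simvastatin in both. They are RefSeq sequence of build GRCh38.p14, which is not the build of the array design, of the 250 bases before the start, or 188 for RABGGTB, written 5′ to 3′ on the strand of the gene in lower case. The windows are chr5:115262878-115263127 on the minus strand for PGGT1B, chr1:75786006-75786193 on the plus strand for RABGGTB, chr1:6235965-6236214 on the minus strand for ICMT and chr1:40257986-40258235 on the plus strand for ZMPSTE24. Capitals mark GGGCGG, the GC box bound by Sp1, on either strand in ICMT and ZMPSTE24, and CCGGAAGT, a site of ETS factors, in ZMPSTE24.
PGGT1B: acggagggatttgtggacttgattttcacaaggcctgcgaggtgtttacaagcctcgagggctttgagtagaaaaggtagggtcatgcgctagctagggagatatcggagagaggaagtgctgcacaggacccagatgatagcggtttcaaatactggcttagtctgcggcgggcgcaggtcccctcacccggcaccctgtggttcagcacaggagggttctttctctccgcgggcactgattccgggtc
RABGGTB: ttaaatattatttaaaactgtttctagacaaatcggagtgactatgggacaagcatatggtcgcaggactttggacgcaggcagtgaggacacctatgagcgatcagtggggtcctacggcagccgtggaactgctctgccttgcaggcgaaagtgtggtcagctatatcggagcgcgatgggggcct
ICMT: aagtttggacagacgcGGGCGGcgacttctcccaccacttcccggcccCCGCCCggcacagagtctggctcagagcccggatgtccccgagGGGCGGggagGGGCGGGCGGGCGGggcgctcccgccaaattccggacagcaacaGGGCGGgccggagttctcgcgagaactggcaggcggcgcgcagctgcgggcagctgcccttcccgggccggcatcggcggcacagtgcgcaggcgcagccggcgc
ZMPSTE24: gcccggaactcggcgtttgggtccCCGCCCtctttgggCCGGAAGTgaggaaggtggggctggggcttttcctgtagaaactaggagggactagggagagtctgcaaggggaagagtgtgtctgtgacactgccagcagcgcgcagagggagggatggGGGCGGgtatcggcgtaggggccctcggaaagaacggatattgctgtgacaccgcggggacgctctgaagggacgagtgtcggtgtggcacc

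The windows of PGGT1B and RABGGTB held none of the 6 motifs searched, while that of ICMT held 7 GC boxes, some of which share bases. The ZMPSTE24 window held 2 GC boxes and 1 ETS site. The GC box was present in 42.6% of 35116 promoter windows of 250 bases and the ETS site in 3.42%. The other motifs were CCAAT (in 32% of windows), CACGTG (6.34%), the NRF1 site (1.03%) and TCACNCCAC, a form of the sterol regulatory element read by SREBP (0.883%), all searched on both strands. A window was matched for 9 of the 10 genes, all but FNTA. Of these 9 genes, 5 had a GC box in at least 1 window, 2 had CCAAT and none had TCACNCCAC. These counts are per gene over 15 windows, some genes having several, while the shares above are per window. The GC box was found for GGPS1, FNTB and ICMT, higher in KURAMOCHI, and for RCE1 and ZMPSTE24, higher in OVSAHO. It was absent for RABGGTA, higher in KURAMOCHI, and for PGGT1B, RABGGTB and CHM, higher in OVSAHO. These matches are of letters only, and factor binding was not measured.

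Around the 10 genes, enzymes of the pathway to farnesyl diphosphate and squalene had more positive drug contrasts in KURAMOCHI than in OVSAHO. HMGCS1, MVK, PMVK, MVD, IDI1, IDI2, FDPS and FDFT1 serve this pathway, and all but IDI2 had a tested probe. They are called supply genes here, although FDFT1, squalene synthase, draws on farnesyl diphosphate and does not supply it. In KURAMOCHI 6 of the 7 tested genes were higher with simvastatin, 5 of them at least 2-fold, against 14.1% and 2.05% of tested probes, and the median log2 fold change was 1.06, beside 0.0017 over all tested probes. In OVSAHO 4 were higher and 1 was lower, against 23% and 25.1% of tested probes, and none 2-fold, against 11%, with a median of 0.33 beside 0.014. For 6 of the 7 the drug contrast was more positive in KURAMOCHI by the test of the difference, against 11.7% of tested probes. The largest of these 7 in KURAMOCHI was HMGCS1, an early condensing enzyme, at 1.57 ± 0.059 (SE, limma adjusted p = 1.5e-04). The OVSAHO value of HMGCS1 was 0.40 (limma adjusted p = 0.0031). IDI1, the isomerase of isopentenyl diphosphate, was at 1.31 in KURAMOCHI and -0.0091 (adjusted p = 0.949) in OVSAHO. MVD, MVK and FDFT1 were at 1.19, 1.06 and 1.04 in KURAMOCHI and at 0.44, 0.33 and 0.51 in OVSAHO. The OVSAHO value of MVK missed the threshold without replicate 2 of simvastatin or replicate 1 of L-778123 of that line, at adjusted p of up to 0.0504, and with the methods' Tukey test (adjusted p = 0.0541).

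FDPS, farnesyl diphosphate synthase, makes the donor of farnesyltransferase and the substrate of GGPS1. Its log2 level was 5.57 and 5.57 in OVSAHO with simvastatin, 6.12 and 6.18 in OVSAHO with L-778123, 6.49 and 6.48 in KURAMOCHI with simvastatin, and 6.14 and 6.07 in KURAMOCHI with L-778123. FDPS was lower with simvastatin in OVSAHO and higher in KURAMOCHI, and the arrays of the drugs overlapped in neither line. The log2 fold changes were -0.58 ± 0.057 (SE, limma adjusted p = 7e-04) and 0.38 ± 0.057 (limma adjusted p = 0.0060). FDPS was the only tested gene of its list that was lower with simvastatin in OVSAHO by the test, and GGPS1, the next enzyme toward geranylgeranyl diphosphate, was higher there.

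The partners of prenylated proteins were read from 14 genes for the other Rab escort protein, GDP dissociation inhibitors, solubilizing factors and prenylcysteine oxidases. In OVSAHO 6 were higher and 4 lower with simvastatin, against 23% and 25.1% of tested probes, with a median of 0.085 beside 0.014. In KURAMOCHI 1 was higher and 3 were lower, against 14.1% and 17.3%, with a median of -0.025 beside 0.0017, and the 4 of 14 were near the 31.4% of all tested probes that passed. CHML, the escort protein related to CHM, had log2 fold changes of -0.089 (limma adjusted p = 0.421) in OVSAHO and 0.14 (adjusted p = 0.267) in KURAMOCHI. PTAR1, an alpha-like subunit that pairs with RABGGTB, had 0.0052 (adjusted p = 0.967) and -0.011 (adjusted p = 0.936).

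ARHGDIB, a GDP dissociation inhibitor best known in blood cells, read -3.82 and -3.51 with simvastatin and -2.24 and -2.02 with L-778123 in OVSAHO, a change of -1.54 (limma adjusted p = 0.0106). That change missed the threshold without replicate 1 of simvastatin (adjusted p = 0.0561) or replicate 2 of L-778123 (adjusted p = 0.0543) of that line, and with the methods' Tukey test (adjusted p = 0.125). With normexp the ARHGDIB changes were -0.45 in OVSAHO, below 2-fold, and -1.25 in KURAMOCHI. In KURAMOCHI ARHGDIB was not well above background with simvastatin, and its measured change was -3.69 (limma adjusted p = 0.0010). Without normexp, and as a bound that was not itself tested, ARHGDIB was at least 7.37-fold higher with L-778123. This fold is the mean of the brighter group over the lowest signal that counted as well above background on the dimmer arrays, the probe itself standing in where it was brighter. ARHGDIG, another inhibitor of the family, read -0.55 and -0.39 with simvastatin and -2.50 and -1.87 with L-778123 in OVSAHO, a change of 1.72 (adjusted p = 0.0015). The KURAMOCHI value of ARHGDIG was -0.68 (adjusted p = 0.0580), which passed without either OVSAHO L-778123 array, with normexp, with probes above background on all arrays and with the arrays of that line alone (adjusted p of 0.0126 to 0.0322).

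Substrates of the CAAX enzymes outside the small GTPases were read from 24 genes, of which 23 had a tested probe and GNG2 had none. In OVSAHO 7 were higher and 11 lower with simvastatin, against 23% and 25.1% of tested probes. In KURAMOCHI 1 was higher and 11 were lower, against 14.1% and 17.3%. The OVSAHO and KURAMOCHI medians were -0.065 and -0.21 beside 0.014 and 0.0017 over all tested probes. At least 2-fold lower in OVSAHO were GBP1, LMNB2, CENPF, GNG12 and CENPE, and at least 2-fold higher were GBP2 and GNG7, against 6.19% and 4.78% of tested probes. LMNB2, the lamin B2 of the nuclear envelope, was at -1.39 (limma adjusted p = 7e-05) in OVSAHO and -0.55 (adjusted p = 0.0029) in KURAMOCHI. CENPF, read from the brightest of its 2 probes, and CENPE are farnesylated proteins of the kinetochore. They were at -1.24 and -1.10 in OVSAHO and at -0.61 and -0.83 in KURAMOCHI. GNG12, a G protein gamma subunit, was at -1.11 and -0.41, and GNG7, another gamma subunit, was at 1.01 in OVSAHO and -0.14 (adjusted p = 0.0931) in KURAMOCHI, where the methods' Tukey test gave an adjusted p of 0.0264. With normexp the OVSAHO value of GNG7 was 0.91, below 2-fold, as it also was, at 0.99, without replicate 2 of L-778123 of that line.

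The guanylate-binding proteins GBP1 and GBP2, interferon-inducible GTPases that end in a CAAX motif, parted in OVSAHO. GBP1 read -3.50 and -3.05 with simvastatin and -0.59 and -0.82 with L-778123 in OVSAHO, and 1.36 and 1.41 against 3.80 and 3.69 in KURAMOCHI. It was lower with simvastatin, at -2.57 (limma adjusted p = 1.5e-04; -1.43 with normexp) in OVSAHO and -2.36 (limma adjusted p = 5.2e-04) in KURAMOCHI. GBP2 read 1.51 and 1.43 with simvastatin and -1.46 and -1.44 with L-778123 in OVSAHO, and 1.38 and 1.43 against 1.61 and 1.62 in KURAMOCHI. It was higher with simvastatin in OVSAHO by 2.92 ± 0.057 (SE, limma adjusted p = 1.3e-05), and the OVSAHO L-778123 arrays stood apart from the other 6. The KURAMOCHI value was -0.21 (adjusted p = 0.0421) and missed the threshold without any 1 of the 8 arrays, at adjusted p of 0.0563 to 0.170, and under 6 other alternatives, at 0.0565 to 0.168.

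**Figure D4:**
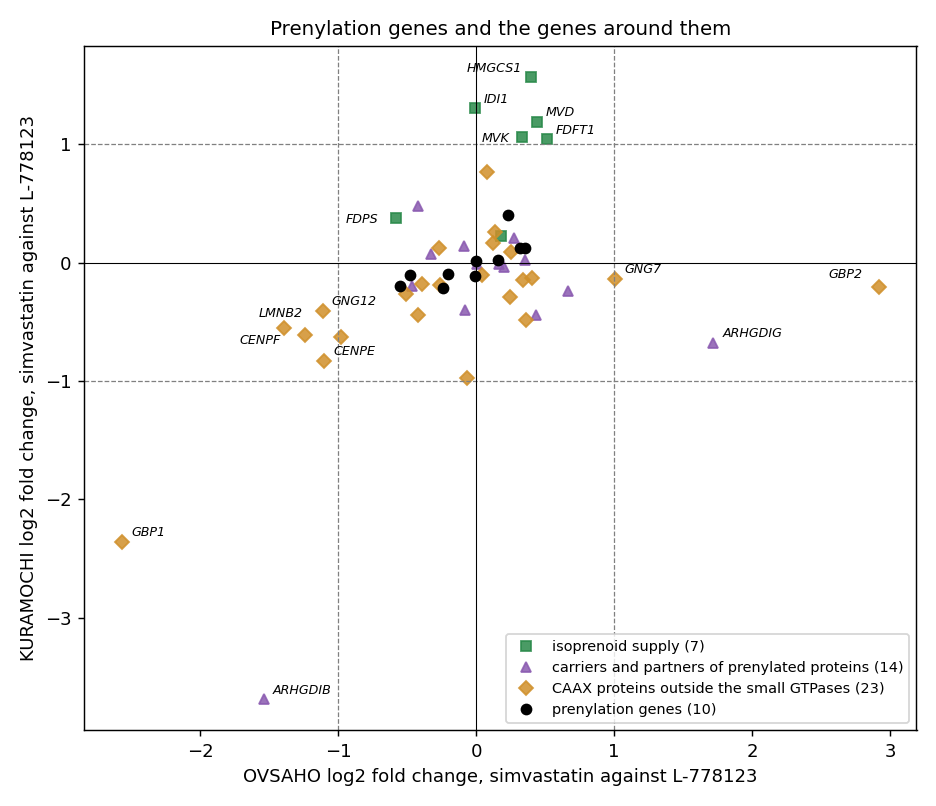
Log2 fold change of simvastatin against L-778123 in OVSAHO (x axis) and in KURAMOCHI (y axis), with 1 point per gene, black circles for the 10 prenylation genes, squares for isoprenoid supply, triangles for carriers and partners, diamonds for CAAX proteins, and dashed lines at 2-fold. The 10 genes lie between -0.55 and 0.40 on either axis, 5 supply genes lie above 2-fold in KURAMOCHI, and the ARHGDIB point rests on KURAMOCHI simvastatin arrays that were not well above background.

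The genes whose 4 group means were most like those of ICMT and RABGGTB, the members with the widest ranges, were found by the root mean square difference of centred means over the 4 groups. For ICMT these were HMGN3-AS1 at 0.0227, CCDC150 at 0.0450 and MAP4K3 at 0.0477 on the log2 scale. For RABGGTB they were SMAD2 at 0.0178, PHAX at 0.0208 and PPIP5K2 at 0.0224. Each of these differences was below the median gap between arrays of a group, and nothing on function is drawn from them.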

How the data were processed

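RNA of the 8 samples was hybridized to Agilent SurePrint G3 arrays. The authors extracted images with Feature Extraction 11.5.1.1 and deposited the processed intensity of each spot, corrected for background within the array, and a value table of intensity whose array medians were all about 26.4, differing by at most 0.0584. The methods name scaling to the 75th percentile, and how that table was normalized is not given in the sources used here. Samples were grouped by their labels.

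Control and outlier spots were left out. From each log2 intensity the 75th percentile of its array was subtracted, which was an intensity of 324 to 437, and 51.8% to 57.5% of probes were well above background. Of 58162 probes, 33753 cleared background in both replicates of some group and entered limma 3.58.1 under R 4.3.3 (4 group means, moderated by eBayes, Benjamini-Hochberg adjustment). A probe passed at an adjusted p under 0.05, and the fold threshold was 2. The comparisons were the drugs in each line, the difference of these contrasts, and the lines averaged over drugs. The number of arrays limits the precision. Fits were tested on simulated data for the OVSAHO drug contrast. There 27.4%, 57.75% and 91.07% of changes of 0.5, 1 and 2 on the log2 scale were recovered. Far fewer probes changed in the simulation than passed in OVSAHO, so these shares need not hold here. A gene that did not pass is not shown to be unchanged.

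Symbols came from RefSeq accessions, which named 24778 of 50096 identifiers. Genes named are the 10 members, genes of the 3 lists that differed at least 2-fold between drugs (at most 8 a list), CHML, PTAR1, FDPS, and 3 genes of like pattern for each of 2 members. Members and lists were chosen with earlier results of these data known. List genes were also read from their brightest probe. The 14 carriers had 18 probes and the 24 CAAX genes had 34, and their other probes are not given singly. The 20 alternatives were other background corrections, scalings, filters, tests, thresholds and probes, the authors' table, a replicate block and each array left out. An item of the supply list is not reported here. Other experiments of the paper were not analysed here.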

Additional observations from a re-analysis of the deposited data

Results flagged for a closer look

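The drug contrasts of the genes below differed between the lines when that difference was tested (limma, OVSAHO log2 fold change minus KURAMOCHI log2 fold change). Among the 10 prenylation genes this was FNTB alone, at -0.37 ± 0.086 (SE, adjusted p = 0.0310).

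Of the isoprenoid supply genes, HMGCS1 differed by -1.17 (adjusted p = 9.4e-04), IDI1 by -1.31 (adjusted p = 0.0031) and FDPS by -0.96 (adjusted p = 0.0015). MVD differed by -0.75 (adjusted p = 0.0050), MVK by -0.73 (adjusted p = 0.0058) and FDFT1 by -0.53 (adjusted p = 0.0059). All of these were more positive in KURAMOCHI.

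Of the carriers, ARHGDIB differed by 2.15 (adjusted p = 0.0234), a value that rests on KURAMOCHI simvastatin arrays not well above background, and ARHGDIG by 2.39 (adjusted p = 0.0047). The ARHGDIB difference missed the threshold without any 1 of 6 arrays, all but the KURAMOCHI simvastatin arrays, at adjusted p of 0.0530 to 0.0746, and with no filter (adjusted p = 0.0589). With normexp the differences were 0.81 for ARHGDIB and 1.62 for ARHGDIG.

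Of the CAAX proteins, GBP2 differed by 3.12 (adjusted p = 1.4e-04), GNG7 by 1.14 (adjusted p = 6.8e-04), LMNB2 by -0.84 (adjusted p = 0.0034), GNG12 by -0.70 (adjusted p = 0.0034) and CENPF by -0.63 (adjusted p = 0.0059). Carriers and CAAX proteins are given here only where they also differed at least 2-fold between the drugs in a line. In all, 6 of 14 carriers passed this test, 4 of them more positive in OVSAHO and 2 in KURAMOCHI. Of 23 tested CAAX proteins 10 passed, 6 more positive in OVSAHO and 4 in KURAMOCHI. Over all tested probes 22.9% passed this test.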

How the results depend on the processing

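Of the 10 genes, FNTB and RCE1 kept their drug calls in OVSAHO under all 18 alternatives that gave a value, and GGPS1, FNTB, PGGT1B, RABGGTA, RABGGTB, CHM, ZMPSTE24 and ICMT stayed past the adjusted p between the lines under all 16, though PGGT1B fell below 2-fold with normexp (0.85). The OVSAHO count of 6 was 3 with the methods' analysis of variance and Tukey's test, which lost GGPS1, FNTA and ICMT, and 2 to 6 with an array left out. It was 7 with normexp. GGPS1 and ZMPSTE24 were lost in OVSAHO with no filter and with 1 line alone, and GGPS1 with the replicate block. RABGGTA was gained in OVSAHO with the percentile over bright probes, and CHM in either line with the median over probes. The KURAMOCHI count of 2 was 1 with quantile normalization, the authors' table, no filter, 1 line alone or the replicate block, 0 with Tukey's test, and 0 to 1 with an array left out. The count of genes whose contrast differed between lines, 1, was 0 with no filter, with the replicate block and with any array left out. With no fold threshold the counts called were 6 in OVSAHO, 2 in KURAMOCHI and 10 between the lines. At the 2-fold threshold they were 0, 0 and 3. The 2-fold count between the lines, 3, was 2 with normexp and 4 at a fold of 1.5. The line count of 10 was 8 to 10 with an array left out. The list counts stayed within 1.5 times, and with an array left out they were 4 to 5, 7 to 10 and 12 to 17 for supply, carriers and CAAX proteins in OVSAHO, and 6, 3 to 5 and 9 to 13 in KURAMOCHI.

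With normexp, values that had not passed changed sign for PGGT1B (-0.013 in OVSAHO, -0.0092 in KURAMOCHI), CHM (0.053) and PTAR1 (-0.043) in OVSAHO and RABGGTA (-0.029) in KURAMOCHI. IDI1 in OVSAHO became 0.026 with quantile normalization and the authors' table and 0.0068 with the percentile over bright probes, which put CHM at 0.0042. PTAR1 in KURAMOCHI became 0.024 with quantile normalization and 0.025 with the authors' table, and with the median over probes PTAR1 in OVSAHO became -0.053 and the CHM difference -0.035. With an array left out the OVSAHO ranges were -0.10 to 0.077 for CHM, -0.19 to 0.0073 for CHML, -0.094 to 0.076 for IDI1, -0.036 to 0.037 for PGGT1B and -0.11 to 0.12 for PTAR1. In KURAMOCHI they were -0.012 to 0.031 for PGGT1B and -0.20 to 0.011 for RABGGTB, and for the difference -0.046 to 0.028 for PGGT1B and -0.063 to 0.016 for ZMPSTE24. RABGGTA passed in OVSAHO with the percentile over bright probes (0.17, limma adjusted p = 0.0472) and RABGGTB with normexp (-0.28, limma adjusted p = 0.0127). Testing without the filter moved the median of all probes by up to 0.228 on the log2 scale. The causes were not tested. Deviations of arrays with the same replicate number correlated at 0.00085 to 0.0555 over probes, so the numbers were not taken to pair the samples. With the replicate block GGPS1 in OVSAHO had a limma adjusted p of 0.0655, ZMPSTE24 in KURAMOCHI 0.0529 and the FNTB difference 0.0581.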
